A study of Mus musculus with 12 samples.

Results

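The histone genes on the array were taken as the probes whose gene name begins with Hist1h, Hist2h, Hist3h, Hist4h, H2af or H3f, or is H1f0, H1fx, H1foo or Cenpa. These were 72 probes for 51 gene names, of 41174 probes and 21197 gene names in all. The 46 probes of 37 genes with a Hist name were described as clustered histones, and the 26 probes of 14 other genes as variants. The samples were mouse embryonic stem (ES) cells given retinoic acid for 3 days, to differentiate them, and undifferentiated ES cells. Each group had 3 biological samples, each measured on 2 technical arrays of 1 colour (Cy3). The labels name no strain, line, genotype or culture method for either group, and do not say whether the biological samples were separate cultures. The p-values therefore reflect only how far these samples lie apart, which may be technical in part.

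Histones are the proteins around which DNA is wound. The cores hold H2A, H2B, H3 and H4, and linker histone H1 binds the DNA between them. Clustered histone genes are transcribed mainly in S phase, when new DNA needs packing, and most of their mRNAs end in a stem-loop in place of a poly(A) tail. Variant genes stand alone, mostly give polyadenylated mRNAs and are transcribed outside S phase too. Their proteins take the place of the clustered ones at particular sites, such as CENP-A at centromeres. The amplification kit named in the labels primes from poly(A) tails, and how much of each histone mRNA it carried over, clustered or variant, was not tested.

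Of the 37 clustered genes, 28 lie on chromosome 13, 5 on chromosome 3, 3 on chromosome 11 and 1 on chromosome 6, while the 14 variant genes are spread over 10 chromosomes, by the RefSeq table of GRCm38.p6. The table names Hist1h2al, Hist3h2bb-ps and H2afy3 as transcribed pseudogenes. Within a type, the coding sequences of the clustered genes are near copies of each other, so a probe named for one gene may report several. Probe sequences were not used here, so each value below belongs to a probe and its gene name is the one the file gives.

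The promoters show how the classes differ in their control sequence. RefSeq windows of GRCm38.p6, from 250 bases before to 50 after the start site, were matched for 43 of the 51 genes, as 44 windows. Each was searched on both strands for the letters of the CCAAT box (CCAAT), the TATA box (TATAAA), the octamer (ATTTGCAT) and the H1 box (AAACACA), which are known from histone promoters. No match of one overlapped a match of another in the windows shown. Shown are Hist3h2ba (chr11:58948661-58948960, plus strand) and Hist1h3d (chr13:23575513-23575812, plus strand), which were called higher in retinoic acid, and a clustered linker gene, Hist1h1c (chr13:23738557-23738856, plus strand), beside the variant linker gene H1f0 (chr15:79027962-79028261, plus strand). Capitals mark these motifs on either strand.
Hist3h2ba: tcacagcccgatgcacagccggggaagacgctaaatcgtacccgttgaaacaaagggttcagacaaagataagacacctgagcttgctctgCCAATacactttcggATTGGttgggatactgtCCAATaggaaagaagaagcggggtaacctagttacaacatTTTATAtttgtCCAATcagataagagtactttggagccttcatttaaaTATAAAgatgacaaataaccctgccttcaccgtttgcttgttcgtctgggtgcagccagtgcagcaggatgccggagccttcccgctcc
Hist1h3d: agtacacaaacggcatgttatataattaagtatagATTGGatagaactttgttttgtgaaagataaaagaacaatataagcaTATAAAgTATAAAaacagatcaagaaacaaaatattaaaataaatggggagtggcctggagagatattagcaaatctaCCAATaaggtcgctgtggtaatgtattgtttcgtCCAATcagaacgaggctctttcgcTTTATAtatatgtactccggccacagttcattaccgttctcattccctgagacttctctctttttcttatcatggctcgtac
Hist1h1c: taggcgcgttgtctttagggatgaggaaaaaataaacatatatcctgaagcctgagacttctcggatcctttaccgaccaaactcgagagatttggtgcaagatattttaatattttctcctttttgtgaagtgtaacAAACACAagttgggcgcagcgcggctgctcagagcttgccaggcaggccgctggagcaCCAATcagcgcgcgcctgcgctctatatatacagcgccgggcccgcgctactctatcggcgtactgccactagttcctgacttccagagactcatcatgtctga
H1f0: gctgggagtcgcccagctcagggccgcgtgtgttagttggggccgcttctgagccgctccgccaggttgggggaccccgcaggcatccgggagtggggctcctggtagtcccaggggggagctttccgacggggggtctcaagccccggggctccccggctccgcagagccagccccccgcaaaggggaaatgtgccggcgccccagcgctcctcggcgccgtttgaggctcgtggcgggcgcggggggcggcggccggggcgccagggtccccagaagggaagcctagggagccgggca

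The CCAAT box was found in 29 of 32 clustered windows (90.6%) and 8 of 12 variant windows (66.7%), against 37.4% of all 32851 promoter windows. By type, it was in every clustered H1, H2A, H2B and H3 window but in only 2 of 5 clustered H4 windows (40.0%). Among the variants it was in 1 of 3 H1, 4 of 6 H2A and 3 of 3 H3 windows. The TATA box was found in 20 clustered windows (62.5%) and 1 variant window (8.33%), against 13.6% of all. The octamer, known from H2A and H2B promoters, was in 6 of 11 clustered H2A and 4 of 8 clustered H2B windows, against 1.74% of all. The H1 box was in 5 of 6 clustered H1 windows, against 7.18% of all, and in 0 of 3 variant H1 windows. The windows of Hist3h2ba and Hist1h3d held CCAAT boxes and TATA boxes several times, that of Hist1h1c held an H1 box and a CCAAT box, and that of H1f0 held none of these letters. The window of Hist2h3c1 held a single CCAAT box, after the start site.

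A probe was tested when it exceeded the 95th percentile of its array's negative controls on 4 or more of the 6 arrays in 1 of the groups. Levels below are log2(quantile-normalized intensity + 50), and a probe was called at an adjusted p under 0.05 (limma, Benjamini-Hochberg over all 26587 probes tested). Of the 72 histone probes, 61 were tested. The 11 untested probes had mean intensities of 6.28 to 29.7, and 4 genes had no tested probe (Hist1h2ac, Hist1h2al, Hist1h2be and Hist1h2bq). Array medians of the net intensity ran from 37.4 to 96.6, and 53.8% to 85.0% of probes exceeded the limit. The labels were checked against markers. The 3 ES cell genes found by name (Pou5f1, Sox2 and Zfp42) were all called lower in retinoic acid, and 3 of 4 retinoic acid response genes were called higher. Fibroblast markers moved with the groups too. Of the 8, 4 were called higher (Col1a2, Col3a1, Pdgfrb and Tagln) and 1 lower (Thy1) in retinoic acid, and none was at 0. Col1a2 and Col3a1 were above background on only 4 of the 6 undifferentiated arrays. The summed intensity of the 8 was 25504 to 32207 in retinoic acid samples and 5947 to 14872 in undifferentiated samples. Most of it came from Tagln and Acta2 in retinoic acid (mean levels 13.70 and 13.69) and from Acta2 in undifferentiated samples (12.78). Acta2 was not called. The part of these markers in the results below was not tested.

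Most histone probes did not pass the test. In these bulk samples fewer cells of a type and less RNA per cell cannot be told apart. In retinoic acid 6 of 61 were called higher (9.84%, where 14% of all probes tested were) and 1 was called lower (1.64%, where 11.5% were). The calls went to Hist3h2ba, Hist1h3d, Hist2h3c1, H1f0, H2afy3 and H3f3b, all higher, and to H2afj, lower. The samples of the groups did not overlap for 20 of the 61 probes (32.8%), against 42.4% of all probes tested. The 38 clustered probes had 3 higher calls and a median difference of 0.03 on the log2 scale, which was -0.11 with arrays scaled to the 75th percentile and -0.09 scaled to the median. It was -0.11 without retinoic acid replicate 2, -0.09 without undifferentiated replicate 3 and 0.17 without undifferentiated replicate 1, so it has no settled sign. The 23 variant probes had 3 higher and 1 lower call and a median of 0.27 (0.10 under either scaling), and all probes tested had a median of -0.05.

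**Figure D1:**
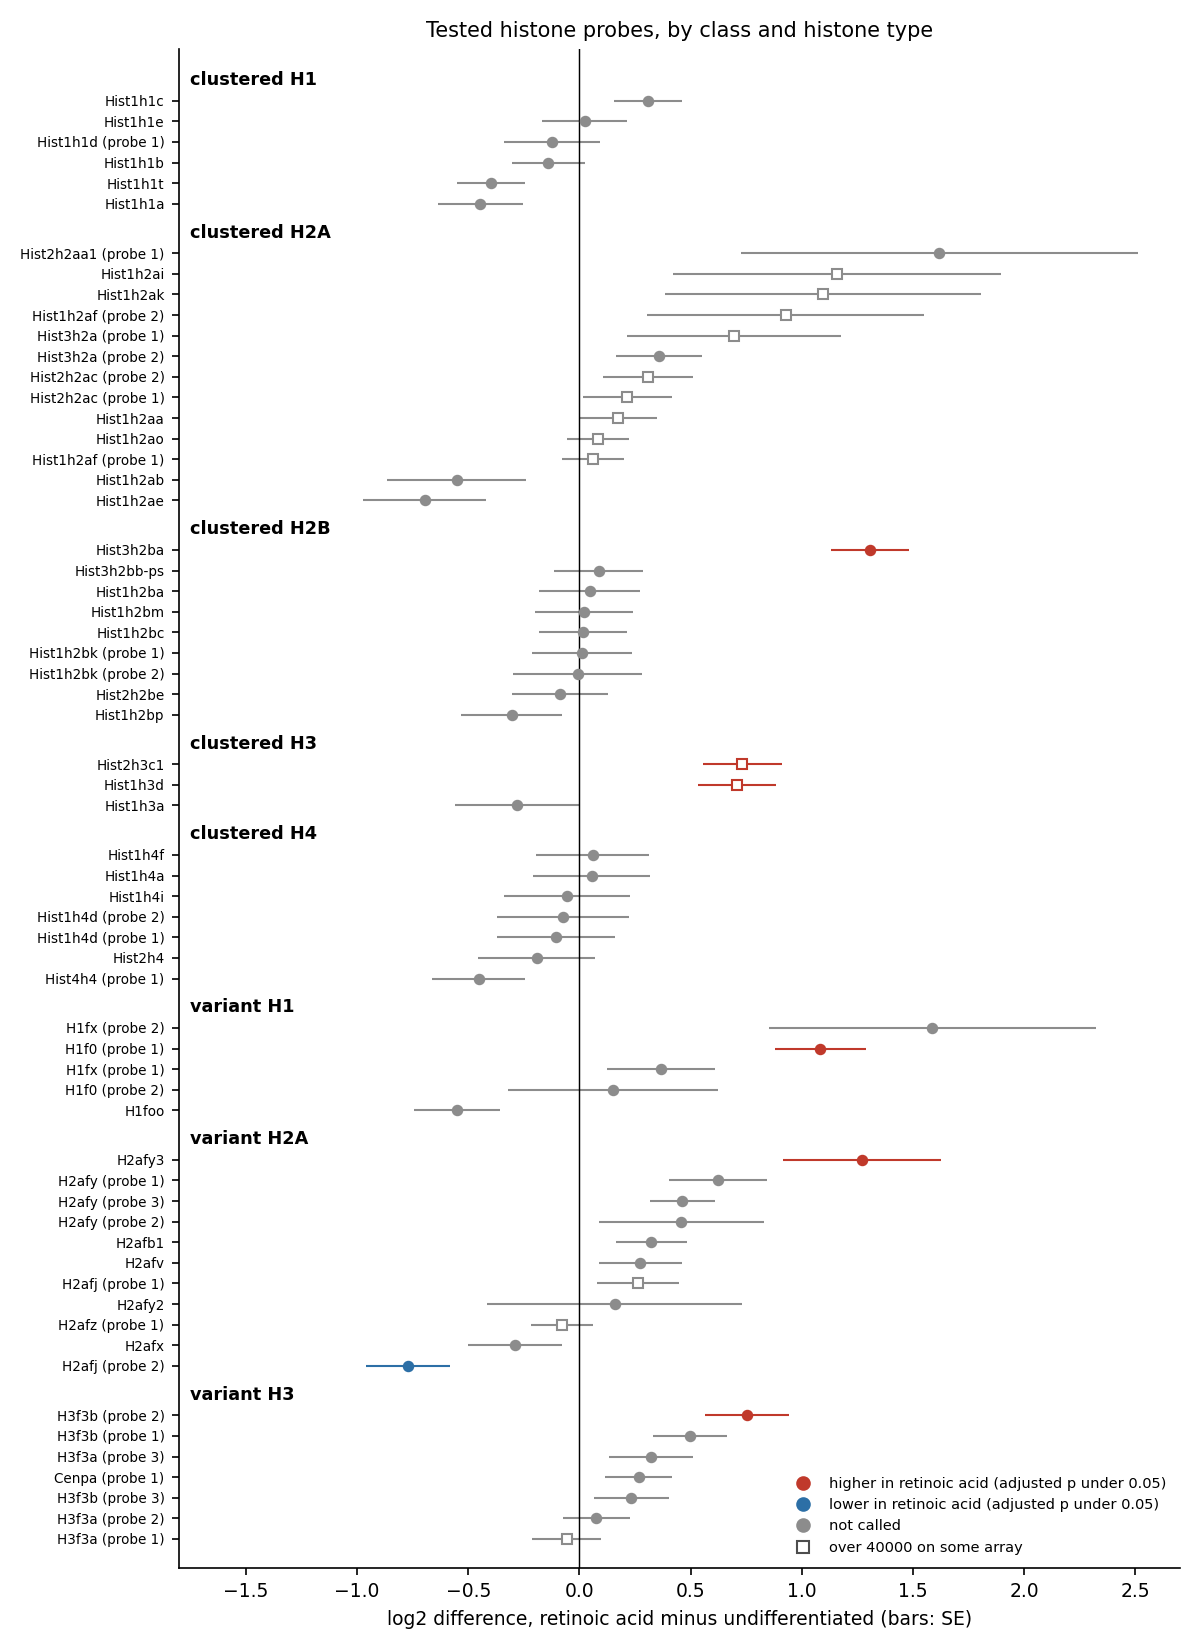
Log2 difference, retinoic acid minus undifferentiated, of each of the 61 tested histone probes, with its standard error, by class and histone type. The 6 red points were called higher and the 1 blue point lower, and squares mark the 14 probes that exceeded an intensity of 40000 on some array.

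A second limit applies to the brightest probes. The brightest spot of an array lay between 42952 and 49949, and 14 tested histone probes (12 genes) exceeded 40000 on at least 1 array, close to that top, where differences may be compressed. They included 9 of the 13 tested clustered H2A probes, as well as H2afj, H2afz and H3f3a among the variants. The called probes of Hist1h3d and Hist2h3c1 each exceeded it on 2 arrays.

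Linker histones of the clusters did not pass the test, with differences of -0.45 to 0.31 (limma adjusted p 0.10 to 0.95, 1 of 6 with an unadjusted p under 0.05). Hist1h1a, at -0.45, and Hist1h1c, at 0.31, marked the ends of that range, and only for Hist1h1c and Hist1h1t did the groups not overlap. Hist1h1c, one of the main somatic linker histones, had levels of 8.20, 8.36 and 8.07 in retinoic acid and 7.79, 7.99 and 7.93 in undifferentiated samples (adjusted p = 0.19). Hist1h1t, a linker histone known from testis, was at 6.04, 6.03 and 5.94 in retinoic acid and 6.21, 6.44 and 6.55 in undifferentiated samples. Its probe was above background on 0 of 6 retinoic acid arrays and 5 of 6 undifferentiated arrays. That gives at least 1.38-fold more in undifferentiated samples, without the added 50, with a limma adjusted p of 0.10. The probe passed the filter only through the undifferentiated group, which favours a higher level there. It was called with 1 or 10 added before the logarithm (limma adjusted p 0.018 and 0.029), where signals below background weigh more. It was also called with a variance trend (0.045). These calls are not counted as support for a difference.

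Clustered H2A probes split into bright and dim ones, and none of the 13 tested passed (differences of -0.70 to 1.62, limma adjusted p 0.11 to 0.80, 1 with an unadjusted p under 0.05). The dim probes of Hist1h2ab and Hist1h2ae had negative differences. Hist1h2ae was at 7.12, 7.66 and 7.10 in retinoic acid and 8.37, 8.15 and 7.44 in undifferentiated samples, a difference of -0.70 ± 0.28 (SE, adjusted p = 0.11). Hist1h2ab was at 7.41, 7.81 and 7.23 in retinoic acid and 8.33, 8.43 and 7.34 in undifferentiated samples, a difference of -0.55 ± 0.31 (adjusted p = 0.24). In both, undifferentiated replicate 3 lay within the retinoic acid range while the other undifferentiated samples lay above it. Without that replicate both were called lower in retinoic acid, with differences of -0.97 and -0.90 (adjusted p 0.023 and 0.025). Since it lay nearest to the retinoic acid samples, leaving it out widens the difference. Neither was called under any other of the 21 alternatives run (adjusted p up to 0.29 for Hist1h2ae and 0.50 for Hist1h2ab).

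Undifferentiated replicate 3 stood apart for 5 bright H2A probes. The probes of Hist2h2aa1 (brightest), Hist1h2ai, Hist1h2ak, Hist1h2af (second) and Hist3h2a (brightest) were each lower in it than in the lowest of the other 5 samples, by 3.36, 2.88, 2.80, 2.49 and 1.90 on the log2 scale. Over all probes tested, 59 of 26587 (0.222%) were lower in this sample by at least 1 in the same way, and 366 (1.38%) were higher. In order of that gap these H2A probes took places 1, 2, 3, 4 and 6 among all probes. No other sample stood apart by 1 for any histone probe.

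Both technical arrays of that sample showed it. Hist2h2aa1 had net intensities, before normalization, of 7067 to 19474 on the retinoic acid arrays and 6203 to 8419 on those of undifferentiated replicates 1 and 2, and of 776.2 and 720.4 on those of undifferentiated replicate 3. Hist1h2ai had 27983 to 45464 on the retinoic acid arrays, 27071 to 37980 on those of undifferentiated replicates 1 and 2, and 5445 and 5310 on those of replicate 3. The probes come from clusters on chromosomes 13, 3 and 11 and are named for genes of near-identical coding sequence, so how many separate transcripts they report was not tested.

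With all 6 samples, these 5 probes had differences of 0.70 to 1.62 with standard errors of 0.48 to 0.89, and none was called. Against the mean of undifferentiated replicates 1 and 2 alone, the retinoic acid mean was 0.06 (Hist3h2a) to 0.42 (Hist2h2aa1) higher. Hist2h2aa1 showed the widest spread, with levels of 13.42, 13.21 and 13.69 in retinoic acid and 13.27, 12.77 and 9.41 in undifferentiated samples. The groups overlapped, since undifferentiated replicate 1 was above retinoic acid replicate 2. The other bright H2A probes (Hist1h2aa, the first of Hist1h2af, Hist1h2ao and both of Hist2h2ac) were also lowest in undifferentiated replicate 3, with differences of 0.06 to 0.31 that turned negative with arrays scaled to the 75th percentile or the median. Hist1h2aa is known as a testis H2A, and its probe exceeded 40000 on 11 of 12 arrays.

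**Figure D2:**
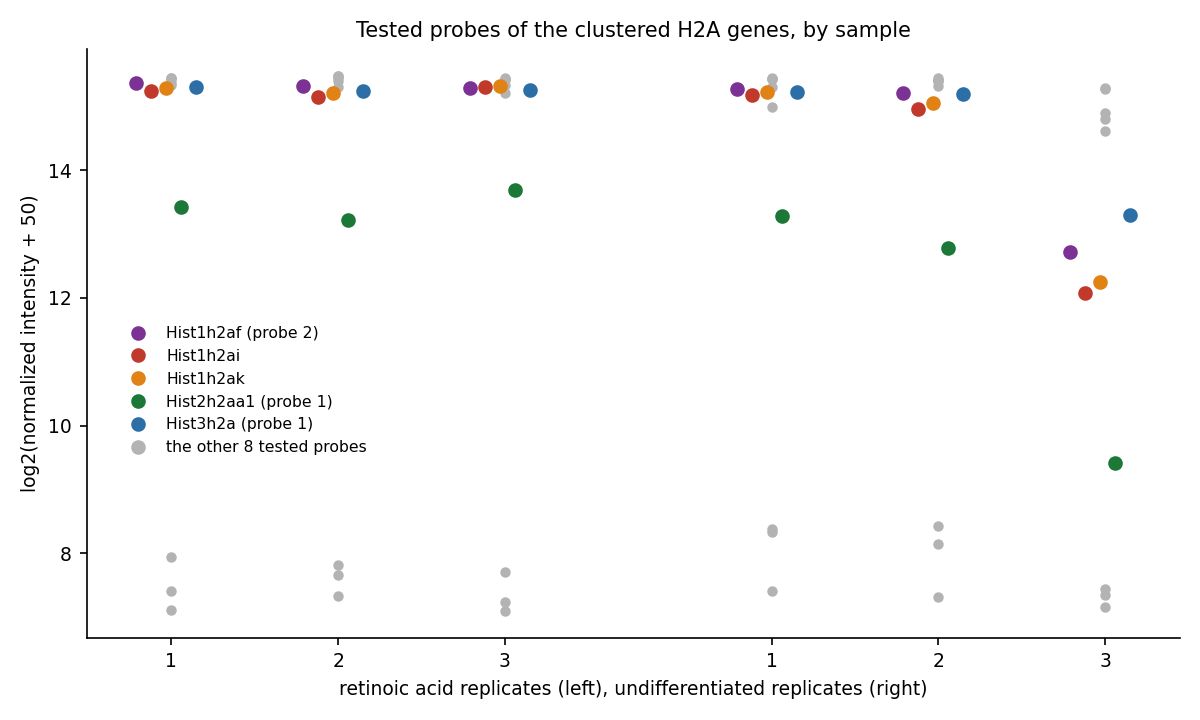
Levels, as log2(normalized intensity + 50), of the 13 tested clustered H2A probes in each retinoic acid and undifferentiated sample. The 5 coloured probes are 1.90 to 3.36 lower in undifferentiated replicate 3 than in any other sample, and grey points are the other 8 probes.

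Among H2B genes Hist3h2ba, which lies on chromosome 11 outside the main cluster, was called higher in retinoic acid. It was at 8.60, 8.07 and 8.25 in retinoic acid and 6.97, 7.05 and 6.99 in undifferentiated samples, a difference of 1.31 ± 0.18 (SE) or 2.47-fold (limma adjusted p = 0.0017). All retinoic acid samples lay above all undifferentiated ones, and the call held under each of the 21 alternatives run, between 1.16 and 1.76. Hist3h2a, its neighbour in the same small cluster and an H2A gene, was not called with either probe (0.70 and 0.36). The other 8 tested H2B probes had differences of -0.30 to 0.09 and adjusted p of 0.38 to 0.99. They include Hist1h2bk, whose probes gave 0.01 and -0.01, Hist1h2bm (0.02), the testis gene Hist1h2ba (0.05) and Hist3h2bb-ps (0.09).

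Of the 3 clustered H3 probes, those of Hist2h3c1 and Hist1h3d were called higher and that of Hist1h3a was not. Hist2h3c1 was at 14.76, 14.60 and 15.02 in retinoic acid and 13.90, 14.03 and 14.25 in undifferentiated samples, a difference of 0.73 ± 0.18 (SE) or 1.66-fold (limma adjusted p = 0.021). Hist1h3d was at 14.53, 14.34 and 14.81 in retinoic acid and 13.73, 13.86 and 13.97 in undifferentiated samples, a difference of 0.71 ± 0.18 or 1.63-fold (adjusted p = 0.022). In both, retinoic acid replicate 3 was highest and the groups did not overlap. The samples of each group ranked in the same order in both probes, and since H3 paralogs share sequence they may not be separate measurements.

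Both H3 calls depended on the scaling of the arrays. With arrays scaled to the 75th percentile the differences were 0.22 for Hist2h3c1 and 0.26 for Hist1h3d (adjusted p 0.34 and 0.29), and scaled to the median 0.26 and 0.29 (0.33 and 0.29). Both were also lost without undifferentiated replicate 1, retinoic acid replicate 1 or retinoic acid replicate 3 (adjusted p 0.070 to 0.099). Hist1h3a, measured by a dim probe, was at 7.47, 7.92 and 7.41 in retinoic acid and 8.41, 7.85 and 7.39 in undifferentiated samples, a difference of -0.28 ± 0.28 (adjusted p = 0.51). Its groups overlapped.

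None of the 7 tested H4 probes was called (limma adjusted p 0.16 to 0.91, none with an unadjusted p under 0.05). Their differences ran from -0.45 for Hist4h4 on chromosome 6 to 0.06 for Hist1h4f, and every H4 probe had overlapping groups. Hist4h4 was at 7.54, 8.25 and 7.68 in retinoic acid and 8.36, 8.21 and 8.26 in undifferentiated samples, so retinoic acid replicate 2 lay within the undifferentiated range. Without that replicate it was called lower, at -0.67 (adjusted p = 0.035), and it was called under no other alternative run. The technical arrays of 1 sample differed by 1.49 for this probe.

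Leaving out the probes over 40000, most clustered probes shared their highest retinoic acid sample and their lowest undifferentiated sample. Of these 27 probes, 23 were highest of the retinoic acid samples in replicate 2, and 20 were lowest of the undifferentiated samples in replicate 3. Shares over all probes tested were not counted, here or for the variants below. Probes of paralogs that share sequence may not be separate measurements. The clustered probes left out did not share the retinoic acid order. Those of Hist1h3d, Hist2h3c1, Hist1h2ai, Hist1h2ak and Hist3h2a (brightest) were lowest of the retinoic acid samples in replicate 2. Those of Hist1h2aa, Hist1h2af (first), Hist1h2ao and Hist2h2ac (first) were highest in it, and the second of Hist1h2af and of Hist2h2ac were neither. In undifferentiated replicate 3 the H2A probes left out were lowest of their group, while Hist1h3d and Hist2h3c1 were highest. For the 27 probes, the deviation of each from its own mean over the 6 samples averaged -0.10, 0.24 and -0.14 in retinoic acid replicates 1, 2 and 3. It averaged 0.18, 0.16 and -0.34 in undifferentiated replicates 1, 2 and 3. Hist2h2aa1, one of the H2A probes that stood apart, weighs on these means. Without it the other 26 probes averaged -0.13, 0.22 and -0.18 in retinoic acid and 0.16, 0.16 and -0.23 in undifferentiated samples. The 20 variant probes never over 40000 ran otherwise, at 0.36, -0.07 and 0.26 in retinoic acid and -0.23, -0.34 and 0.03 in undifferentiated samples, and 12 of them were lowest of the retinoic acid samples in replicate 2. The 19 S phase genes listed for comparison averaged -0.13, 0.02 and -0.15 in retinoic acid and 0.13, 0.17 and -0.05 in undifferentiated samples.

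**Figure D3:**
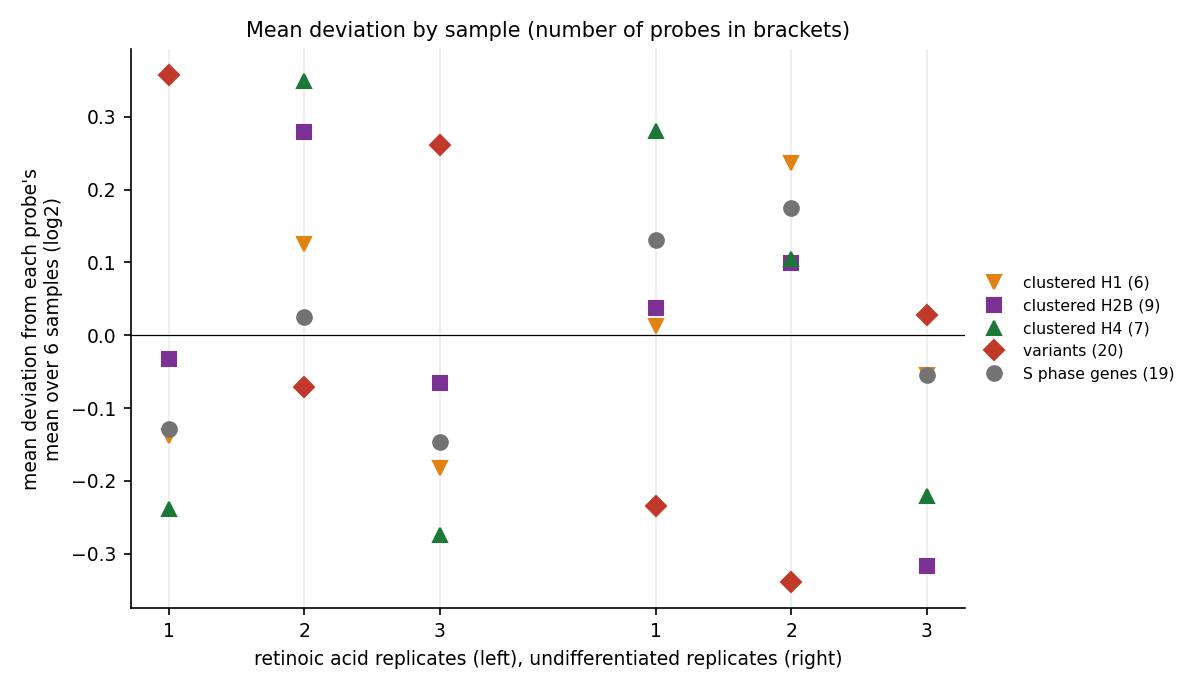
Mean deviation, in log2 units, from each probe's own mean over the 6 samples, by sample, for clustered H1, H2B and H4 probes, variants and S phase genes. Clustered H4 stood at 0.35 in retinoic acid replicate 2 and -0.22 in undifferentiated replicate 3, where variants stood at -0.07 and 0.03.

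Among the variants H1f0, the linker histone H1.0 that is known to build up in differentiating and resting cells, was called higher in retinoic acid. Its brightest probe was at 10.88, 10.42 and 10.65 in retinoic acid and 9.27, 9.60 and 9.84 in undifferentiated samples, a difference of 1.08 ± 0.20 (SE) or 2.12-fold (limma adjusted p = 0.0074). The lowest retinoic acid sample lay above the highest undifferentiated one, and the call held under each of the 21 alternatives run (0.93 to 1.22). Its other probes were dim: the second gave 0.15 ± 0.47 (adjusted p = 0.85) and the third was not tested. The second was above background on 4 of 6 retinoic acid arrays and 3 of 6 undifferentiated arrays. It passed the filter only through the retinoic acid group, so its sign is not counted as support. H1fx, a linker variant, had differences of 0.37 ± 0.24 and 1.59 ± 0.73 (adjusted p 0.32 and 0.16). Its second probe was at 10.70, 8.40 and 11.08 in retinoic acid and 9.42, 7.55 and 8.44 in undifferentiated samples, so replicate 2 was lowest of either group. That probe was called without retinoic acid replicate 2 (2.42, adjusted p = 0.019) and with the replicate number as a block (adjusted p = 0.026). H1foo, known as the oocyte linker histone, was at 6.85, 6.79 and 6.62 in retinoic acid and 7.65, 7.05 and 7.22 in undifferentiated samples, a difference of -0.55 ± 0.19 (adjusted p = 0.074). Its probe was dim, with a mean intensity of 84.6. It was called lower with the sample as a random block (limma adjusted p = 0.048) and without undifferentiated replicate 2 (-0.68, 0.038). Since that replicate lay nearest to the retinoic acid samples, leaving it out widens the difference.

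**Figure D4:**
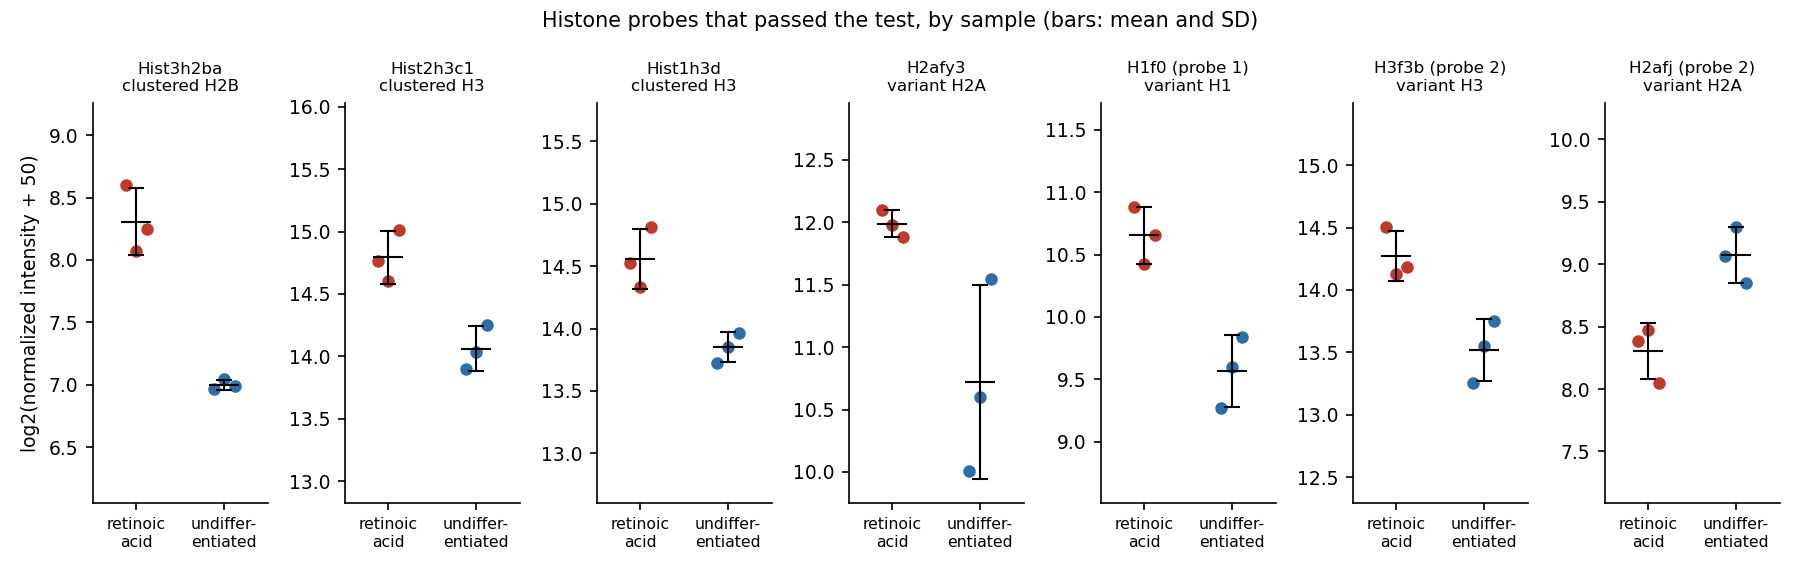
Levels, as log2(normalized intensity + 50), of the 7 called histone probes in the 3 retinoic acid (left, red) and 3 undifferentiated (right, blue) samples, with mean and SD, each panel spanning the same log2 range. In every panel the groups are apart, and the undifferentiated samples of H2afy3 run from 10.005 to 11.55.

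MacroH2A is an H2A with a large added domain, known from the inactive X chromosome and from silenced genes. H2afy, which encodes macroH2A1, had 3 tested probes, and none was called. The brightest and the second were higher on average in retinoic acid. The brightest was at 12.58, 12.20 and 12.245 in retinoic acid and 11.56, 11.46 and 12.13 in undifferentiated samples, a difference of 0.62 ± 0.22 (SE, limma adjusted p = 0.076). It was called without undifferentiated replicate 3 (0.83, adjusted p = 0.020) and under no other alternative run. Since that replicate lay nearest to the retinoic acid samples, leaving it out widens the difference. With arrays scaled to the 75th percentile or the median the difference was 0.29 or 0.33 (limma adjusted p 0.32 and 0.28). The technical arrays of 1 sample differed by 1.01 for this probe, more than the group difference. The dimmest was above background on 4 of 6 retinoic acid arrays and 0 of 6 undifferentiated arrays, which gives at least 1.72-fold (adjusted p = 0.054, and 0.012 to 0.31 over the alternatives). It passed the filter only through the retinoic acid group, which favours a positive difference, so its sign is not counted as support. The second gave 0.46 ± 0.37 (adjusted p = 0.42), and 0.22 or 0.25 with arrays scaled to the 75th percentile or the median. H2afy2, which encodes macroH2A2, was at 7.58, 6.20 and 7.39 in retinoic acid and 6.56, 6.0 and 8.14 in undifferentiated samples, and the groups overlapped (0.16 ± 0.57).

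H2afy3, which RefSeq lists as the transcribed pseudogene Macroh2a3, was called higher. It was at 12.10, 11.98 and 11.89 in retinoic acid and 10.005, 10.60 and 11.55 in undifferentiated samples, a difference of 1.27 ± 0.35 (SE) or 2.41-fold (limma adjusted p = 0.035). The groups did not overlap, though the undifferentiated samples spread over more than the group difference and replicate 3 came close to the retinoic acid range. The call was lost with arrays scaled to the 75th percentile or the median (adjusted p 0.066 and 0.063), with no filter on dim probes (0.071) and without retinoic acid replicate 1, 2 or 3 or undifferentiated replicate 1 or 2 (0.074 to 0.11).

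Of the remaining H2A variants, 1 probe of H2afj was called and no other. For H2afj, an H2A variant with a distinct tail, the second probe was called lower, at 8.39, 8.47 and 8.05 in retinoic acid and 9.07, 9.30 and 8.85 in undifferentiated samples. The difference was -0.77 ± 0.19 (SE, limma adjusted p = 0.021), and it was lost without undifferentiated replicate 1, retinoic acid replicate 1 or retinoic acid replicate 3 (adjusted p 0.063 to 0.094). Its brightest probe, over 40000 on 7 arrays, gave 0.26 ± 0.18, turned to -0.20 and -0.17 with arrays scaled to the 75th percentile and the median, and was not called under any of these. H2afz, which encodes H2A.Z and is needed in early development, gave -0.08 ± 0.14 with its bright probe, over 40000 on 4 arrays (-0.54 and -0.50 with arrays scaled to the 75th percentile and the median, adjusted p 0.059 and 0.093), and its close relative H2afv gave 0.27 ± 0.19. H2afx, whose protein is phosphorylated at DNA breaks, was at 13.37, 13.08 and 13.31 in retinoic acid and 13.78, 13.72 and 13.13 in undifferentiated samples (-0.29, adjusted p = 0.37), and gave -0.70 and -0.67 under the same scalings (adjusted p 0.057 and 0.073). H2afv turned negative under them (-0.10 and -0.07). H2afb1 gave 0.32 ± 0.16 (limma adjusted p = 0.18). Its dim probe was above background on 6 of 6 retinoic acid arrays and 3 of 6 undifferentiated arrays. It passed the filter only through the retinoic acid group, which favours a positive difference, so its sign is not counted as support.

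H3f3a and H3f3b both encode H3.3, the H3 variant laid down outside DNA replication. H3f3b had positive differences with all 3 probes and passed the test with the second. That probe was at 14.50, 14.13 and 14.19 in retinoic acid and 13.25, 13.55 and 13.75 in undifferentiated samples, a difference of 0.75 ± 0.19 (SE) or 1.69-fold (limma adjusted p = 0.024). It was lost with arrays scaled to the 75th percentile (0.33, adjusted p = 0.22) or the median (0.37, adjusted p = 0.20), and without undifferentiated replicate 1, retinoic acid replicate 1 or retinoic acid replicate 3 (0.071 to 0.099). The brightest was at 14.72, 14.35 and 14.62 in retinoic acid and 13.98, 13.998 and 14.22 in undifferentiated samples (0.50 ± 0.17, adjusted p = 0.064), and the dimmest gave 0.23 ± 0.17. With arrays scaled to the 75th percentile or the median the brightest gave only 0.07 or 0.10 (limma adjusted p 0.78 and 0.69). It was called with the sample as a random block (0.046) and with a robust variance trend (0.023), both on quantile-normalized values. The 3 probes of H3f3a gave -0.06, 0.08 and 0.32, and none was called. All 3 were negative with arrays scaled to the 75th percentile (-0.44, -0.34 and -0.09) or the median (-0.41, -0.30 and -0.05), and for the third probe the technical arrays of 1 sample differed by 1.20. Whether the H3f3b and H3f3a differences are unequal was not tested.

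Cenpa, the H3 of centromeres, was at 12.14, 12.36 and 12.20 in retinoic acid and 12.02, 11.84 and 12.05 in undifferentiated samples. The groups did not overlap, with a difference of 0.27 ± 0.15 (SE), and it was not called (limma adjusted p = 0.24). With arrays scaled to the 75th percentile or the median the difference was -0.08 or -0.04.

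Genes whose products handle histones and their mRNAs were described by the brightest probe of each, beside the shares of all probes tested given above (14% higher and 11.5% lower). Of 12 tested genes for histone mRNA transcription and processing, Zfp473, a zinc finger protein of the histone pre-mRNA cleavage complex, was called lower (-0.84) and the other 11 were not called. The median over all 12 was -0.17. Slbp, which binds the stem-loop, was at 13.09, 13.05 and 13.04 in retinoic acid and 12.58, 12.71 and 13.09 in undifferentiated samples and was not called. Of 11 tested chaperones and assembly factors of replication histones, Rbbp7, a histone-binding subunit of several chromatin complexes, was called higher (0.66) and the other 10 were not. The median over all 11 was 0.03.

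Of 18 tested variant chaperones and remodellers, Daxx (0.52), which delivers H3.3 with Atrx, and Nap1l4 (0.62), a nucleosome assembly protein, were called higher. Ino80 (-1.15), a remodeller known to act on H2A.Z nucleosomes, was called lower, and the other 15 were not called. Of 19 S phase genes, Mcm3 (-0.60), part of the replicative helicase, and E2f1 (-0.87), a transcription factor of S phase entry, were called lower and the other 17 were not called. The median over all 19 was -0.18.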

How the data were processed

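Total RNA of 6 samples was amplified once and labelled with Cy3, per the labels' protocols, and hybridised to 12 arrays. The deposited scanner tables hold a linear net mean intensity per spot, per the file headers, from which local background was already subtracted. R 2.15.0 and limma are named in the submitters' processing notes. The authors' deposited value table holds quantile-normalized intensity and served as an alternative. No build of the array is given in the sources used here, and GRCm38.p6 served for names, chromosomes and promoters. All 72 histone probes matched a RefSeq gene, 62 by accession.

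Here 41174 probes were quantile-normalized, 50 was added and log2 taken, so differences of dim probes are understated. The technical arrays of a sample were averaged. The background limit came from 27 negative control spots per array. Groups were compared, 3 against 3, with limma 3.58.1 (two-sided; linear model and empirical Bayes, in R 4.3.3) without covariates. The number of arrays limits the precision. The fit was tested on simulated data with known changes. For a probe below background on every array of 1 group, a fold is a lower bound, in which each dim array's value is replaced by the lowest signal above its limit where that is higher. Lists used the brightest probe of each gene. Python 3.11.15 with matplotlib 3.10.9 drew the figures.

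The histone probes, the gene lists and the rule for naming (called genes, genes whose probes disagree, and the untested ones) were chosen with earlier results of these data known. Hist1h2ab, Hist4h4 and others outside that rule were named after their values were seen. Whether replicate numbers pair the samples was not settled by the check made: same-numbered samples correlated at -0.0499, 0.283 and 0.139 in their deviations from the group means. The header of the second technical array of undifferentiated replicate 2 names that sample's other array. It was kept, and left out as an alternative. Other alternatives covered the scaling, the added value, the filter, 1 probe per gene, single technical arrays, a random block for the sample, the replicate block, the variance model, the threshold and leaving out each sample.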

Additional observations from a re-analysis of the deposited data

How the results depend on the processing

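Under 21 alternatives, 21 of the 61 probe results kept their call and their sign, and no called difference changed direction. The 6 higher calls became 2 with arrays scaled to the 75th percentile, 2 scaled to the median and 2 at an adjusted p under 0.01 (limma), and 2 to 8 when a sample was left out, with 2 without undifferentiated replicate 1, retinoic acid replicate 1 or retinoic acid replicate 3. The 1 lower call became 2 with 1 added, 10 added, the 12 arrays fitted with the sample as a random block (correlation 0.89) or a robust variance trend, and 0 with 1 probe per gene or at an adjusted p under 0.01. It was 0 to 3 when a sample was left out, 3 without undifferentiated replicate 3. With the replicate block, 7 were called higher and 1 lower. Undifferentiated replicates 2 and 3 correlated best with the same-numbered retinoic acid sample (0.283 and 0.139), whereas undifferentiated replicate 1 correlated best with retinoic acid replicate 3 (0.247). Undifferentiated replicate 3 correlated almost as well with retinoic acid replicate 1 (0.131). Among the retinoic acid samples, only replicate 2 correlated best with the undifferentiated sample of its own number. The brightest spot also went with the number in both groups, at 44234 to 44752 for replicate 1, 42952 to 43900 for replicate 2 and 48088 to 49949 for replicate 3, so a shared source of same-numbered samples was not settled by this check. The mean deviations without Hist2h2aa1 were chosen after seeing the data. Scaling to the 75th percentile moved the higher share of all calls to 46.5%, against 55% with quantile normalization. The cause of these changes was not tested, beyond the smaller samples and stricter threshold themselves. Signals near the brightest spots limit 14 probes, and dim signals left 11 untested.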
